A study of Arabidopsis thaliana with 4 samples.

Results

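Pectin methylesterases are the 10 Arabidopsis thaliana loci described here, taken as members of the family that are expressed in vegetative tissue, and 6 of the 10 had a probe set paired with that locus alone. Each of the 6 had exactly 1 such probe set, so no choice by brightness was needed. The loci were chosen by membership of the family and vegetative expression, with measured values of the DEX against mock comparison already known, the lower signal of AT5G04960 in DEX among them. The other 4, AT2G26440 (PME12), AT2G45220 (PME17), AT3G14310 (PME3) and AT4G33220 (PME44), had none in the annotation used and were not analysed here. The array annotation covered 13286 loci in this way. The seedlings carried 35S::Dof3.2-GR, in which a constitutive viral promoter drives the Dof zinc finger transcription factor Dof3.2 fused to the glucocorticoid receptor. The receptor part keeps such a fusion out of the nucleus until dexamethasone (DEX) binds it. One group (2 arrays) received 10 µM DEX for 3 h and the other (2 arrays) a mock treatment, having spent 4 days on agar plates (50 µg/ml kanamycin, 1% sucrose) and a further 4 days in liquid culture, at 22 °C. Both groups carried the same transgene, and DEX-treated seedlings without it were not analysed here, so what DEX does by itself cannot be separated from what the fusion does. The labels do not say whether replicates were separate cultures or how many lines were used, so the tests speak of array-to-array spread only, possibly a technical one.

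Pectin methylesterases act on homogalacturonan, the pectin backbone, which is made in the Golgi in a highly methyl-esterified form and exported to the wall. They remove the methyl groups there. Stretches of freed acid groups can bind calcium and stiffen the wall, and they are also the substrate of polygalacturonases and pectate lyases, which cut the chain and loosen it. Many plant pectin methylesterases carry an N-terminal pro-region that is cut off by subtilisin-like proteases, and in the wall they are held in check by small inhibitor proteins. The family matters for elongation of roots and hypocotyls, for tip growth of root hairs and pollen tubes, and for organ initiation.

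The values are MAS5 signals, a brightness per probe set on a linear scale, with every array scaled to the same trimmed mean of 500. Median signals were 190.6 and 193 on the DEX arrays and 193.3 and 192.8 on the mock arrays. Of 22746 probe sets without controls, 13648 had a mean log2 signal at or above the 40th percentile (a signal of 110.6) and were tested in limma, and all 6 annotated members were among them. Signals of different probe sets are not on a common scale, so no member's level is set against that of another. Few arrays limit the precision: log2 changes had a median standard error of 0.14, and 0.333 is the smallest two-sided p that an exact permutation test of 2 arrays against 2 allows. Seedlings were measured whole, so fewer cells of a type and less RNA per cell cannot be told apart in any value below.

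AT5G04960 (PME46) was the member with the lowest change. Its signal was 133 and 97.5 on the DEX arrays, against 279 and 274 on the mock arrays. The groups did not overlap, and the mock arrays lay within 0.02 of each other on the log2 scale while the DEX arrays were 0.45 apart. Its mean was 115 ± 25.2 in DEX-treated and 277 ± 2.99 in mock-treated seedlings (SD, n = 2 each). It fell 2.43-fold (95% interval of the limma fit 1.81 to 3.25), a log2 change of -1.28 ± 0.19 (SE). In the 4 DEX against mock pairs the ratio ran from 2.06-fold to 2.86-fold lower in DEX. Its change ranked 7 from the lowest among the 13648 tested probe sets. It passed the threshold of the limma fit, an adjusted p of 0.05 after Benjamini-Hochberg adjustment over all tested probe sets, but not when dim probe sets were kept or when DEX replicate 2 was left out, where its log2 change was -1.05. This fall is why the family was taken up, so these values are a description and no p-value is printed for them. The interval and the passing of the threshold are likewise no independent test of this gene. The second DEX array lay under the filter level of 110.6, where MAS5 signals are noisy and no detection call was used, so the size of the fall is uncertain. Its neighbour on the chromosome, AT5G04970 (PME47), is also a pectin methylesterase gene. That gene had signals of 115 and 107 on the DEX arrays and 74.3 and 123 on the mock arrays, which overlap, and its probe set was too dim to be tested.

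**Figure D1:**
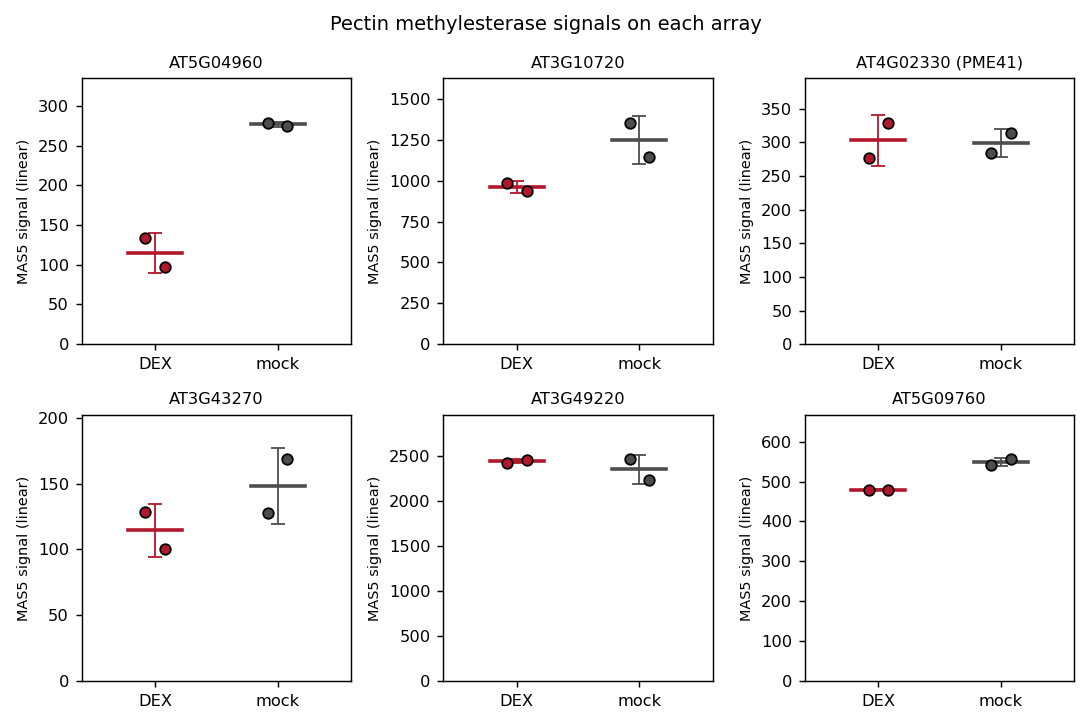
MAS5 signal (linear axis from 0) of the 6 annotated pectin methylesterase loci, with DEX at the left and mock at the right of each panel; points are arrays, horizontal bars group means and whiskers SD (n = 2 each). AT5G04960 sits at 97.5 to 133 in DEX and 274 to 279 in mock, while the groups of AT4G02330, AT3G43270 and AT3G49220 overlap.

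Among the other 5 annotated members none passed that threshold in limma. AT3G10720 (PME25) had signals of 988 and 936 on the DEX arrays and 1355 and 1147 on the mock arrays. Both DEX values lay below both mock values, but the mock arrays differed by 0.24 on the log2 scale, against a change of -0.37 ± 0.12 (SE; 95% interval -0.64 to -0.11, adjusted p = 0.335 in limma). Without mock replicate 2 its change was -0.49, with an adjusted p of 0.0321 in limma. Its means were 962 ± 36.8 in DEX-treated and 1251 ± 147 in mock-treated seedlings (SD, n = 2 each). The gene next to it, RHS12 (AT3G10710), named for its root hair expression, had no probe set of its own in the annotation used and was not analysed here.

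AT5G09760 (PME51) had close replicates in both groups. Its signal was 478 and 479.9 on the DEX arrays, and 541 and 555 on the mock arrays. The groups did not overlap, and the gaps within them were 0.005 and 0.04 on the log2 scale for DEX and mock. Its log2 change was -0.19 ± 0.12 (SE), with a 95% interval of -0.46 to 0.07 and an adjusted p of 0.691 in limma, whose standard error is moderated towards that of probe sets of like brightness. Group means were 479 ± 1.25 in DEX-treated and 548 ± 10.3 in mock-treated seedlings (SD, n = 2 each).

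AT3G43270 (PME32) had a change close to that of AT3G10720 but a wider spread. Its signal was 129 and 100.4 on the DEX arrays, and 128 and 168 on the mock arrays. The first DEX array and the first mock array were nearly equal, so the groups overlapped. The log2 change was -0.37 ± 0.21 (SE; 95% interval -0.84 to 0.11, adjusted p = 0.663 in limma), and the values lie close to the filter level.

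The remaining members showed no shift larger than their replicate spread. AT4G02330 (PME41), described in work on chilling and brassinosteroid responses, had signals of 277 and 329 on the DEX arrays and 284 and 314 on the mock arrays, with the mock pair inside the DEX pair. Its log2 change was 0.01 ± 0.15 (SE). The 95% interval of -0.32 to 0.35 leaves room for a difference of up to 1.28-fold higher or 1.25-fold lower in DEX (adjusted p = 0.992, limma). AT3G49220 (PME34), described in guard cell responses to heat, had signals of 2427 and 2458.5 on the DEX arrays, and 2464 and 2240.05 on the mock arrays. Its log2 change was 0.06 ± 0.10 (SE; 95% interval -0.18 to 0.29, adjusted p = 0.924 in limma). The direction of both changes depended on single arrays. AT4G02330 had a change of -0.11 without DEX replicate 2 and of -0.06 without mock replicate 1, and AT3G49220 one of -0.01 without mock replicate 2.

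In count, 1 of the 6 members was called lower and 0 were called higher, where 0.293% of all 13648 tested probe sets were called in each direction. In limma, 2 of the 6 had an unadjusted p under 0.05, against 9.25% of all tested. The groups did not overlap in 3 members, all lower in DEX, where 21.1% of all tested probe sets lay in that arrangement. The members' median log2 change was -0.28, against -0.0065 over all tested probe sets. The members were chosen with results of this comparison known, so nothing further is read from these counts.

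The rest of the family adds loci on the array that are not among the 10. Of 56 further pectin methylesterase loci, 38 had a probe set of their own and 6 were bright enough to be tested. None of the 6 was called in limma, 2 had an unadjusted p under 0.05 (9.25% of all tested), and all 6 changes were below 0. In 5 of them both DEX values lay below both mock values (background 21.1%), and in 0 above (background 18.2%). AT2G47550 (PME20) had signals of 103 and 99.5 on the DEX arrays, and 153 and 202 on the mock arrays. Both DEX signals lay under the filter level of 110.6, so it was tested only because of its higher mock signals. The size of its change is therefore uncertain, and its values are a description. Passing the filter in this way favours a lower change, and the counts given here include this gene. The groups are apart by more than the gap between the mock arrays, with a log2 change of -0.80 ± 0.20 (SE; 95% interval -1.24 to -0.36, adjusted p = 0.168 in limma). Without mock replicate 1 the change was -1.002, set against a single mock array. AT2G43050 (ATPMEPCRD) had 136 and 115 on the DEX arrays, and 186 and 173 on the mock arrays, a log2 change of -0.53 ± 0.18 (SE; adjusted p = 0.369 in limma). Over the 12 tested genes of the family, 10 changes lay below 0, where 51.8% of all tested probe sets did, and the median was -0.22. The count was 10 or 11 when any 1 array was left out, with a median of -0.24 to -0.17, but those fits share most of their arrays. With a filter at the 60th percentile, 5 were tested and 3 of them lay below 0. Only AT5G04960 of the 12 was called, and its fall is why the family was taken up. This list too was written with earlier results known, so nothing further is read from these counts.

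**Figure D2:**
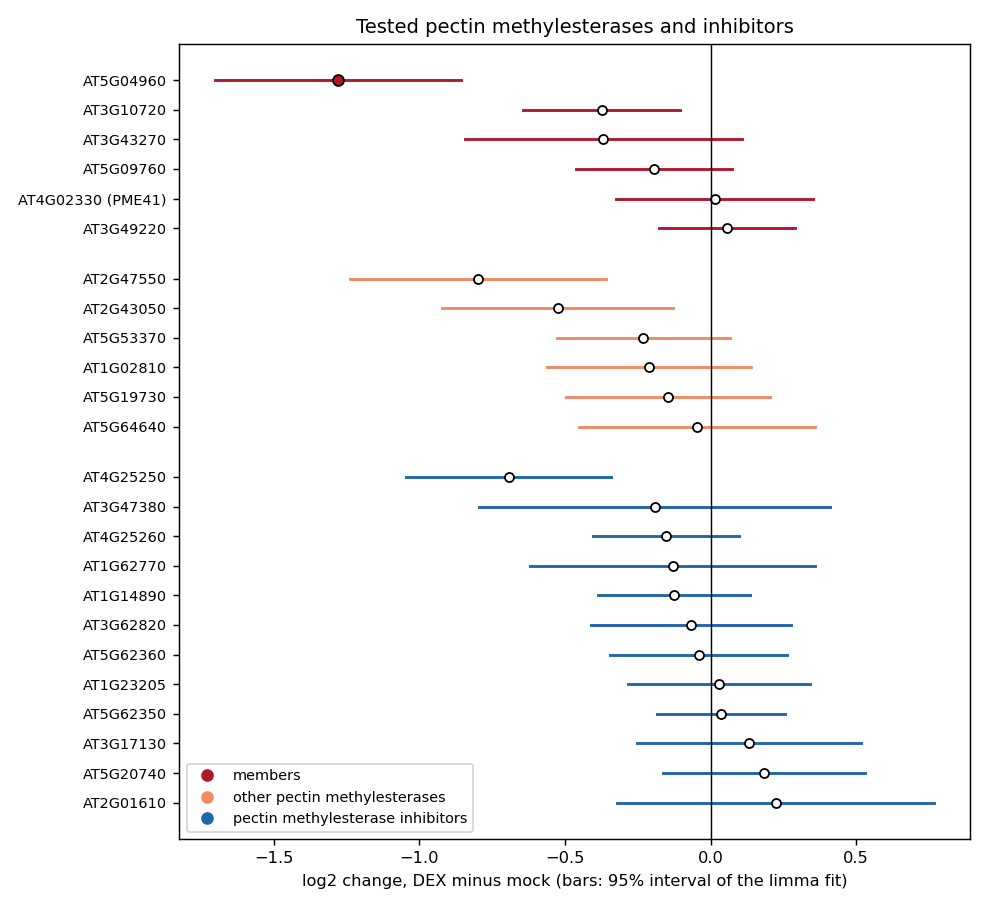
Log2 change (DEX minus mock) with its 95% interval in the limma fit for the 12 tested pectin methylesterases and the 12 tested inhibitors; the filled point passed the threshold and open points did not. AT5G04960 stands at -1.28, 10 of the 12 methylesterases lie below 0, and 7 of the 12 inhibitors do.

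The other 32 annotated pectin methylesterase probe sets were too dim to be tested, and in 28 of them all 4 signals lay under the filter level. The groups did not overlap in 13 of the 32, with 8 lower and 5 higher in DEX. Over all 9098 dim probe sets 22.2% were lower and 14.4% higher in that way. Neighbours of 3 further members on the chromosome belong to these dim ones. AT2G26450, next to the unannotated AT2G26440, had signals of 41.1 and 18.8 on the DEX arrays and 14.4 and 28.4 on the mock arrays, which overlap. AT4G02320, next to AT4G02330, had signals of 1.86 and 5.59 on the DEX arrays and 2.79 and 19.2 on the mock arrays. AT4G33230, next to the unannotated AT4G33220, had 2.53 and 6.61 on the DEX arrays and 16.3 and 28.5 on the mock arrays. At this brightness MAS5 values carry little information on level.

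**Figure D3:**
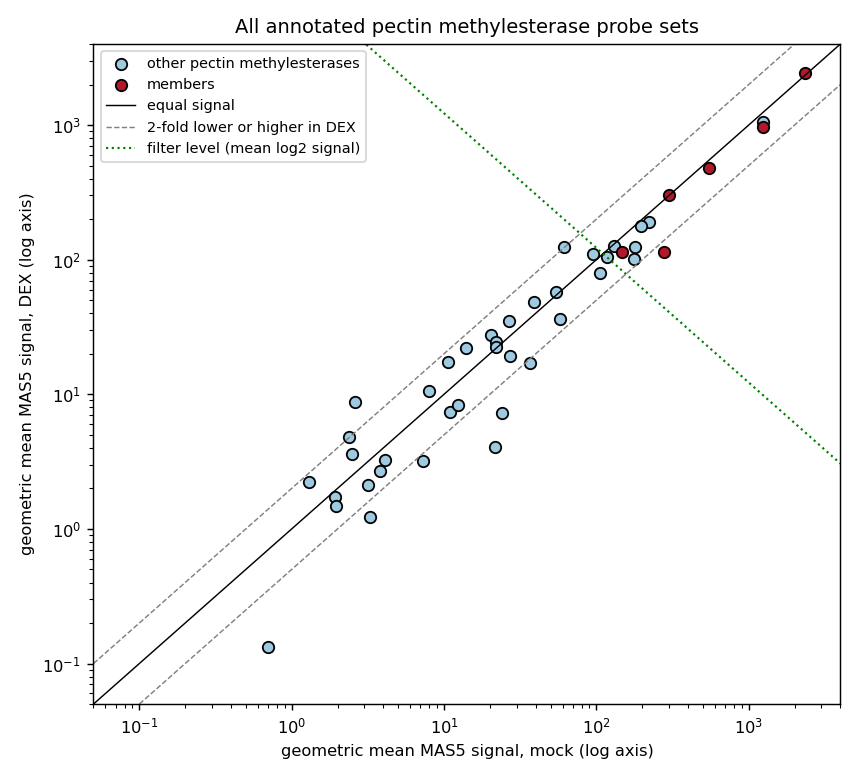
Geometric mean MAS5 signal in DEX (vertical, log axis) against mock (horizontal, log axis) for the 44 pectin methylesterase probe sets paired with 1 locus; the solid line marks equal signal, the dashed lines a 2-fold difference and the dotted line the filter level. The 6 members all lie above the filter level, and AT5G04960 is the tested one beyond the 2-fold line.

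Inhibitors of the enzymes were covered by 19 of the 25 loci listed, and 12 were tested. None was called in either direction, where 0.293% of all tested probe sets were called in each. An unadjusted p under 0.05 in limma was found for 1 of the 12, against 9.25% of all tested. PMEI4 (AT4G25250), an inhibitor gene described in hypocotyl growth, had 148 and 158 on the DEX arrays, and 254 and 241 on the mock arrays. The groups were well apart and tight within themselves, with a log2 change of -0.69 ± 0.16 (SE; 95% interval -1.04 to -0.34), but the adjusted p was 0.12 in limma. Over the alternative settings its change ran from -0.74 to -0.64 and the adjusted p from 0.0638 to 0.665. Its neighbour in the list, PMEI7 (AT4G25260), had a log2 change of -0.15 ± 0.11 (SE), with signals of 740.4 and 782 on the DEX arrays and 831 and 860.2 on the mock arrays. The list's median was -0.05, with 7 changes below 0 and 5 above.

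Proteases linked to cutting off the pro-region were all 3 tested, and none was called or had an unadjusted p under 0.05 in limma. SBT3.5 (AT1G32940), known to process PME17, had a log2 change of -0.12 ± 0.22 (SE), and ARA12 (AT5G67360), a subtilase needed for seed mucilage release, one of -0.07 ± 0.12 (SE). Both signs turned when 1 array was left out. SBT3.5 had 0.18 without mock replicate 2, and ARA12 0.02 without DEX replicate 2 and 0.03 without mock replicate 1.

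Synthesis and methylation of homogalacturonan was hardly covered, with 2 of 16 loci annotated, both tested and neither called (0 at an unadjusted p under 0.05 in limma). AT3G49720, the methyltransferase gene CGR2, had a log2 change of 0.11 ± 0.10 and GAUT15 (AT3G58790), a galacturonosyltransferase gene, one of -0.08 ± 0.16 (SE).

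Among the tested enzymes that act on de-esterified pectin, 0 were called as well (0.293% of all tested in each direction). Too dim to be tested were 8 of 22 annotated polygalacturonase genes and 12 of 23 annotated pectate lyase genes. A dim polygalacturonase gene with much lower DEX signals, AT5G14650, is given under the other observations. Of the 14 tested polygalacturonase genes 1 had an unadjusted p under 0.05 in limma (9.25% of all tested). In this list 8 changes lay below 0 and 6 above, with a median of -0.03. AT1G23460 had signals of 139 and 155 on the DEX arrays, and 119 and 82.7 on the mock arrays, a log2 change of 0.57 ± 0.22 (SE; adjusted p = 0.453 in limma). Its mean mock signal lay under the filter level of 110.6, so it was tested only because of its higher DEX signals. The size of its change is therefore uncertain, and it is part of the counts given here. Its probe set is of the s_at kind, which can bind transcripts of related genes. Without mock replicate 1 the change was 0.83, set against the mock signal of 82.7 alone, which is under the filter level. AT1G65570 had a log2 change of 0.32 ± 0.19 (SE). Of the 11 tested pectate lyase genes 1 had an unadjusted p under 0.05 in limma (9.25% of all tested), and the median was -0.03. AT5G63180 had 1167 and 1038 on the DEX arrays, and 1023 and 705 on the mock arrays, with a gap between the mock arrays wider than that between the groups. Its log2 change was 0.37 ± 0.17 (SE; adjusted p = 0.538 in limma), and without mock replicate 1 it was 0.64 with an adjusted p of 0.006. AT3G24670 had a log2 change of -0.24 ± 0.14 (SE).

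Pectin acetylesterases, which remove acetyl groups from the same polymer, had 5 tested genes of 12 listed and 0 called in limma, with 0 at an unadjusted p under 0.05. AT3G09405 had a log2 change of -0.30 ± 0.20 and AT5G26670 one of 0.17 ± 0.17 (SE). Of the list of polygalacturonase inhibitors and pectin-binding receptors, FER (AT3G51550), a receptor kinase gene needed for root hair growth, was the 1 tested gene and had a log2 change of -0.11 ± 0.11 (SE). These 8 lists outside the 10 members hold 171 loci, of which 114 had a probe set and 54 were tested. Of the 54, 0 were called, where 0.293% of all tested probe sets were called in each direction. In limma 5 had an unadjusted p under 0.05, a share like the 9.25% of all tested. Changes below 0 numbered 35, where 51.8% of all tested lay below 0, and the median was -0.06.

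**Figure D4:**
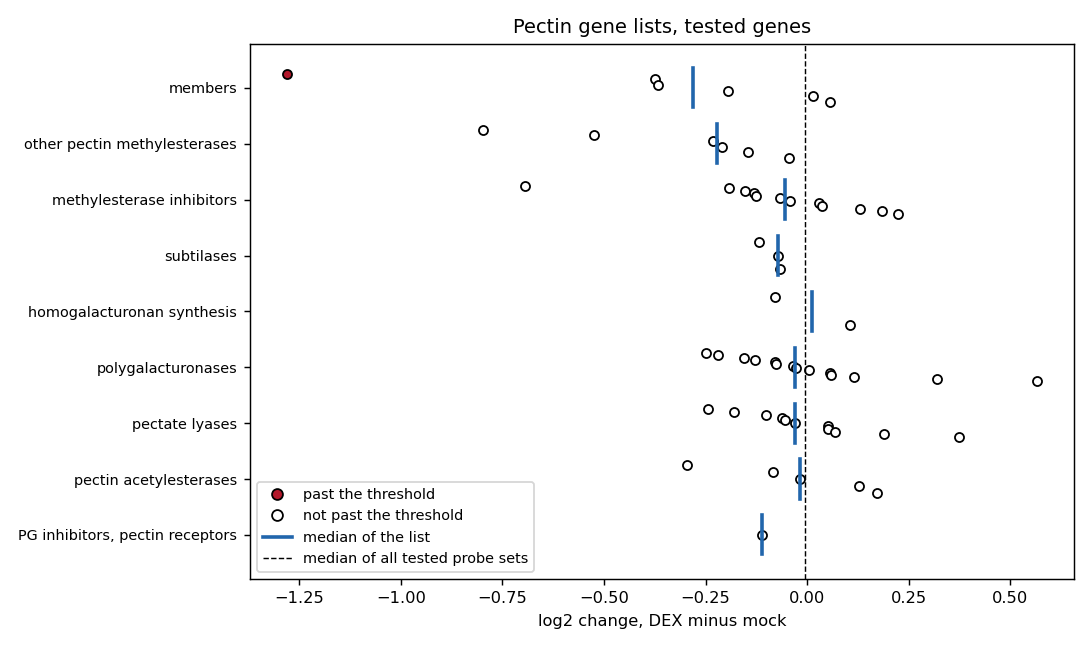
Log2 change (DEX minus mock) of each tested gene in the members and the 8 other pectin lists; blue bars are list medians and the dashed line is the median of all tested probe sets. AT5G04960 is the 1 gene past the threshold, and the medians of the members and of the other pectin methylesterases, -0.28 and -0.22, lie to the left of the other lists.

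The 3 genes whose log2 profile over the 4 arrays, each centred on its own mean, lay closest to AT5G04960 among 7274 other single-locus probe sets were AT5G60520, AT3G07600 and AT5G40590, at Euclidean distances of 0.24, 0.24 and 0.26. AT5G60520 had 287 and 219 on the DEX arrays, and 537 and 501 on the mock arrays. AT3G07600, a gene for a protein with a heavy-metal-associated domain, had 133 and 114 on the DEX arrays, and 258 and 286 on the mock arrays. AT5G40590 had 126 and 89.1 on the DEX arrays, and 217 and 272 on the mock arrays. In each the DEX arrays lay below the mock arrays and the second DEX array was the lowest. With 4 arrays, a likeness of this kind says only that these genes were lower in the same samples.

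Whole seedlings hold root hair, root and shoot cells, so markers of these were read beside AT5G04960. Of 12 listed root hair loci 4 were annotated, all tested, and 1 was called lower in limma, against 0.293% of all tested probe sets. At an unadjusted p under 0.05 there were 2 of the 4, against 9.25% of all tested. All 3 marker lists were written with earlier results of these data known, so nothing further is read from their counts. AT4G26010, a root hair peroxidase gene, had 574 and 562 on the DEX arrays, and 1325 and 1413 on the mock arrays, a log2 change of -1.27 ± 0.11 (SE). EXPA18 (AT1G62980) had 368 and 329.9 on the DEX arrays, and 427 and 518 on the mock arrays, and did not pass (adjusted p = 0.372, limma). EXPA7 (AT1G12560) had 140.2 and 175 on the DEX arrays and 158 and 211 on the mock arrays, which overlap. HRGP1 (AT3G54590) had 362 and 352 on the DEX arrays and 355 and 272 on the mock arrays, which overlap too. Its probe set is of the x_at kind, which can bind transcripts of other genes. The summed signal of the 4 was 1420 to 1445 on the DEX arrays and 2265 to 2413 on the mock arrays, and without AT4G26010 it was 857 to 871 and 939 to 1000.4. Probe sets are not on a common scale, so these sums are no measure of the amount of root hair cells. No marker was near 0, the lowest signal being 140.2, and the part of these cells in the fall of AT5G04960 was not tested.

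Of 4 root markers 3 were annotated and 0 called in limma, with 1 at an unadjusted p under 0.05 (9.25% of all tested). The root peroxidase gene AT5G17820 had 959 and 910.1 on the DEX arrays, and 1379 and 1248 on the mock arrays, a log2 change of -0.49 ± 0.11 (SE; adjusted p = 0.126 in limma). It passed with the replicate number as a block (adjusted p = 0.0436) and without mock replicate 2 (adjusted p = 0.0154). AT4G11290 stood at -0.18 ± 0.12 (SE). The groups did not overlap in 2 of the 3, AT5G17820 and AT4G11290, both lower in DEX (background 21.1%). With the abundant PYK10 included, the summed signal of the 3 was 15307 to 16189.7 on the DEX arrays and 15609 to 16092 on the mock arrays. Probe sets are not on a common scale, so this sum says little about the 2 dimmer markers. Of 8 shoot and photosynthesis markers 4 were annotated and 0 called in limma, with 0 at an unadjusted p under 0.05. PORB (AT4G27440) had a log2 change of -0.23 ± 0.11 and RCA (AT2G39730) one of -0.16 ± 0.12 (SE), and the summed signal of the 4 was 44809 to 52051 on the DEX arrays and 50193 to 52826 on the mock arrays. The same limit of scale holds for this sum.

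**Figure D5:**
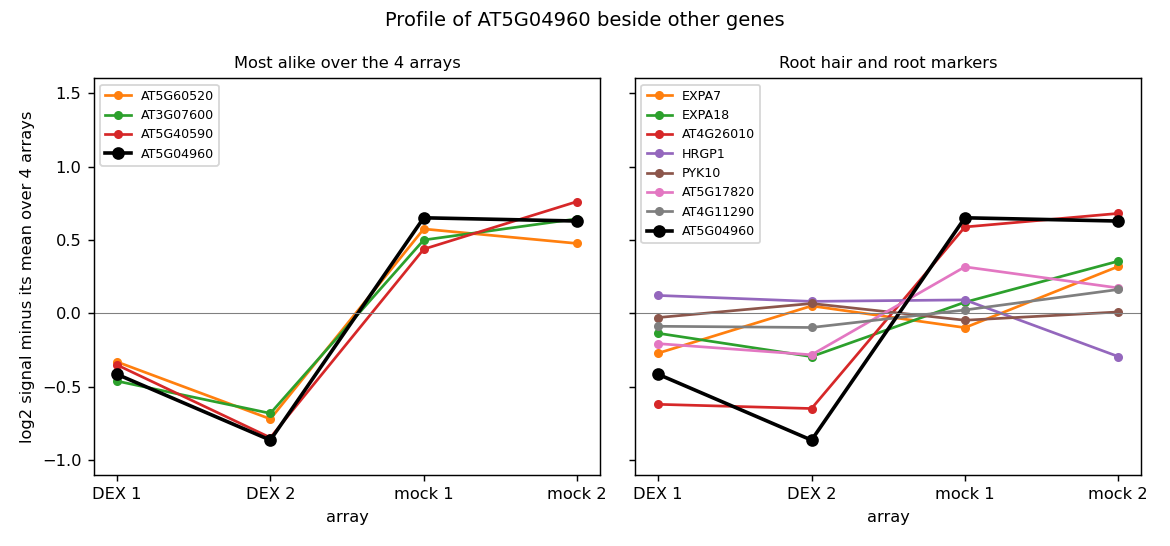
Log2 signal minus its mean over the 4 arrays for AT5G04960 (black) beside the 3 genes with the most alike profile (left) and beside the annotated root hair and root markers (right); lines join arrays only to guide the eye. Of the root hair markers, AT4G26010 and EXPA18 lie lower on both DEX arrays than on both mock arrays, while EXPA7 and HRGP1 overlap; of the root markers, AT5G17820 and AT4G11290 lie lower and PYK10 overlaps.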

How the data were processed

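Whole-seedling total RNA was labelled with biotin and hybridised to 4 one-colour arrays, per the labels. The deposited values are linear intensities that the authors computed in MAS5, per the submitters' processing notes; its version and settings are not given in the sources used here. Each array is scaled as a whole, which hides any change in total RNA per cell. All 4 value columns were matched to samples, and groups came from the treatment label. Of 22810 probe sets, 64 controls were left out. Signals were put on the log2 scale with no pseudocount, and 9098 dim probe sets were left out. The comparison of DEX with mock used limma 3.58.1 (R 4.3.3), a group term, a mean-variance trend and Benjamini-Hochberg adjustment, two-sided. Each test had 9.74 degrees of freedom, 7.74 from the prior and 2 from the arrays. The fit was tested on simulated data drawn with its own variance prior and independent arrays. Such data cannot show how it deals with the noise of dim MAS5 signals or with technical replicates. Of the probe sets, 13436 matched 1 locus through gene identifiers in RefSeq (assembly TAIR10.1), 503 were listed with several genes and 8794 were not listed. The array names no genome build, so no coordinates are given. Named are all members, the called genes of each other list or else the 2 with the lowest p, and the 3 genes most like AT5G04960; others are said to be chosen after their values were seen or are neighbours, markers or clear from a count. The members, lists and tests were chosen with earlier results of these data known. Replicate numbers are shared by both groups; the deviations of same-numbered arrays correlated at r = 0.11 across probe sets over 2 pairs, and no label says that a number marks a shared batch.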

Additional observations from a re-analysis of the deposited data

How the results depend on the processing

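AT5G04960 was no longer called when dim probe sets were kept or without DEX replicate 2 (log2 change -1.05). A filter at the 60th percentile left it out, so it could not be tested there. In the other 9 alternatives it stayed past the threshold, and its change ran from -1.50 to -1.05 over all 11 that tested it. The members called lower thus numbered 0 without the filter and with the stricter filter, and 0 to 2 when 1 array was left out, while 0 were called higher in every alternative. In the other pectin lists 0 to 1 genes were called lower and 0 to 2 higher when 1 array was left out, and 0 in the other 8 alternatives. Tested pectin methylesterases with a change below 0 numbered 3 of 5 with the 60th percentile filter. Over all probe sets, calls lower in DEX numbered 10 without the filter, 23 with the stricter one, 87 with the replicate number as a block and 12 to 220 without 1 array, and calls higher in DEX 15, 20, 98 and 13 to 276. Of the 26 genes refitted under the alternatives, the replicate block changed the call of AT5G17820 alone, and it left the count of members called as it was. Of 301 values of these 26 genes, 287 kept direction and side of the threshold. The sign turned in 6, all with 1 array left out: AT4G02330 (-0.11 to 0.14 over the 4 such fits), AT3G49220 (-0.013 to 0.12), AT5G67360 (-0.16 to 0.026) and AT1G32940 (-0.42 to 0.18). The cause was not tested. With 1 array left out, the spread comes from the intact group alone, and the lone array is assumed to vary like the others. Quantile normalization moved each of the 12 group means of the members by less than 1 SD. Each member had 1 probe set, so averaging probe sets of a locus could give no other value. No group is large enough for a test of single arrays that stand apart.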

Other observations

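Among the pectin genes left out as dim, 2 are given here because their values stood out, a choice made after the values were seen. AT5G14650, a polygalacturonase gene described in root growth, had signals of 26.4 and 10.2 on the DEX arrays, and 171 and 124 on the mock arrays. Both mock arrays lay above the filter level of 110.6 and both DEX arrays far below it, and in limma fitted to all 22746 probe sets its log2 change was -3.15 ± 0.49 (SE) with an adjusted p of 0.0886. AT3G05620, a further pectin methylesterase gene, ran the other way, with 147 and 105 on the DEX arrays, and 68.2 and 55.8 on the mock arrays. Its log2 change in that fit was 1.01 ± 0.28 (SE; adjusted p = 0.405 in limma). Without detection calls, the size of either difference is uncertain.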
